A study of Drosophila melanogaster with 10 samples.

Results

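Neural stem cells of the Drosophila melanogaster brain, called neuroblasts, were compared between pupae depleted of Med27 and wild-type larvae, to ask which changes of the larva-to-pupa transition appear without Med27 and which genes lie outside both wild-type states. The comparison used 6 of the 10 samples of the series: 2 larval libraries and 4 sequencing runs of 2 med27 RNAi replicates. The wild-type pupal neuroblasts (4 runs of 2 replicates) served as the reference for the RNAi-free pupal state. Of 14210 listed genes, the 6942 with a mean level of at least 1 FPKM (fragments per kilobase of transcript, scaled to the mapped fragments of a library) over the 4 larval and RNAi replicates were kept.

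All animals carried the driver inscuteable-Gal4, which is active in neuroblasts, and UAS-CD8::GFP, a membrane-bound green fluorescent protein. Animals called wild type carried in addition the empty landing site VIE-260B of the Vienna collection (VDRC TID:60100). RNAi animals carried a construct against med27 (VDRC TID:106703), a single RNAi line. Eggs were laid for 24 h at 29 °C, and animals were reared for 5 days (late larvae) or 6 days (pupae of 0 to 2 h). RNAi pupae thus differ from the larvae in age, stage and construct together. Flow cytometry was used to collect large cells of bright GFP, so each library pools many brains and all central brain lineages.

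Mediator is a multi-subunit complex that links DNA-bound transcription factors to RNA polymerase II, and Med27 is one of its subunits. Around pupariation a pulse of the steroid hormone ecdysone acts through the receptor EcR-Usp, which switches on a cascade of transcription factor genes and then their target genes. Neuroblasts at this time leave their larval phase of growth and self-renewal, shrink and later stop dividing.

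Depth was 18400000 to 18700000 fragments for the 2 larval libraries, and each pupal run had 27100000 to 31000000, as implied by the confidence bounds of the deposited values. Neuroblast identity genes summed to 1349 and 1437 FPKM in the larvae and to 1557 and 1579 FPKM in RNAi pupae, so the sorted cells carried their defining markers in both groups. A single member, mira, made up the larger part of each sum. The glial markers repo, moody, Gs2, alrm, wrapper and e stayed under 1 FPKM in every replicate, as did 7 of 10 haemocyte, 6 of 8 fat body and 7 of 8 muscle and tracheal markers. Other members of the glial list were expressed. Its 13 genes summed to 219 and 185 FPKM in the larvae, 213 and 217.5 in the wild-type pupae and 178 and 182 in RNAi pupae. Neuron markers were present in all groups and are described with the results they move with. The deposited larval and pupal tables carry different run identifiers, so stage and sequencing run cannot be told apart in any comparison with larvae. The labels do not say whether replicates came from separate crosses, so the p-values measure the spread between these 2 replicates per group, which may be technical.

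The targeted gene checked the labels. MED27 (FBgn0037359, 3R:1480867-1482058 in the coordinates of the deposited tables, whose build is not named) stood at 31.7 and 38.4 FPKM in the larvae and at 31.5 and 27.4 FPKM in wild-type pupae. In RNAi pupae it stood at 5.33 and 3.99 FPKM. Both RNAi replicates lay below all 4 wild-type replicates, with a log2 fold change against larvae of -2.67 (SE 0.15, limma adjusted p = 0.000157). MED27 overlaps CG2182 at its end, and CG2182 itself gave values of 50 and 52.9 FPKM in larvae against 50.3 and 49.6 FPKM in RNAi pupae.

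RNAi pupae differed from larvae in 1946 genes that rose, 28% of those kept, and 1374 genes that fell, 19.8%, at a limma adjusted p below 0.05. Changes of at least 1 on the log2 scale were found for 343 of the genes that rose and 245 of those that fell. Fold changes were computed from log2(FPKM + 1), so those of genes at low levels are understated. Replicate groups did not overlap in 5388 of the 6942 kept genes, called or not. The filter kept 200 genes with a larval mean under 1 FPKM, of which 122 rose, and 107 with an RNAi mean under 1 FPKM, of which 69 fell. Such genes passed the filter only through the group in which they were high.

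**Figure D1:**
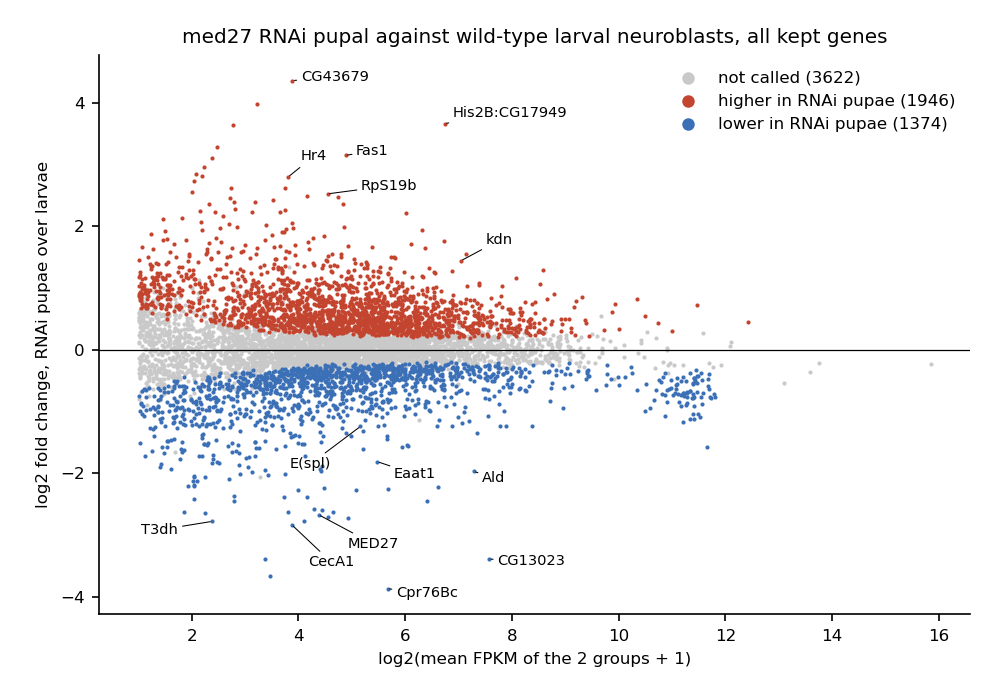
Each point is 1 of the 6942 kept genes, with the log2 of the mean FPKM of larvae and med27 RNAi pupae plus 1 on the x axis and the log2 change of RNAi pupae over larvae on the y axis. Red points (1946) and blue points (1374) passed the limma test, and grey points (3622) did not.

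The number of calls rested on the replicates used. Without RNAi replicate 2 the counts were 972 and 650, without RNAi replicate 1 they were 1370 and 970, and without larval replicate 2 they were 1697 and 943. The balance of directions rested on the scaling. Rescaling the libraries without their most abundant gene, CR34335, moved the median of all genes from 0.05 to 0.21 and gave 2804 genes higher and 843 lower. Quantile normalization gave 1617 and 1641, and removal of a trend over transcript length gave 1534 and 1533.

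Transcript length moved with the comparison. The median log2 change of RNAi pupae over larvae was -0.11 for genes of 1000 to 2000 nt, 0.30 for 3000 to 5000 nt and 0.60 for the 542 genes over 5000 nt, of which 386 rose and 18 fell. In wild-type pupae against larvae the same classes gave -0.24, 0.31 and 0.64, and the shortest class, up to 500 nt, gave -0.45 against -0.01 in RNAi pupae. Long genes therefore stood higher in both pupal groups. Genes of 1000 to 2000 nt stood lower in both, with 667 that fell and 314 that rose in RNAi pupae. The part of RNA quality or library preparation in this trend was not tested. For the lists and for changes of named genes against larvae, values after removal of the trend are given below where they end a call, turn a direction or change a called value by more than 1.5 times. Differences between the 2 pupal groups of single genes are given as deposited, without that removal.

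**Figure D2:**
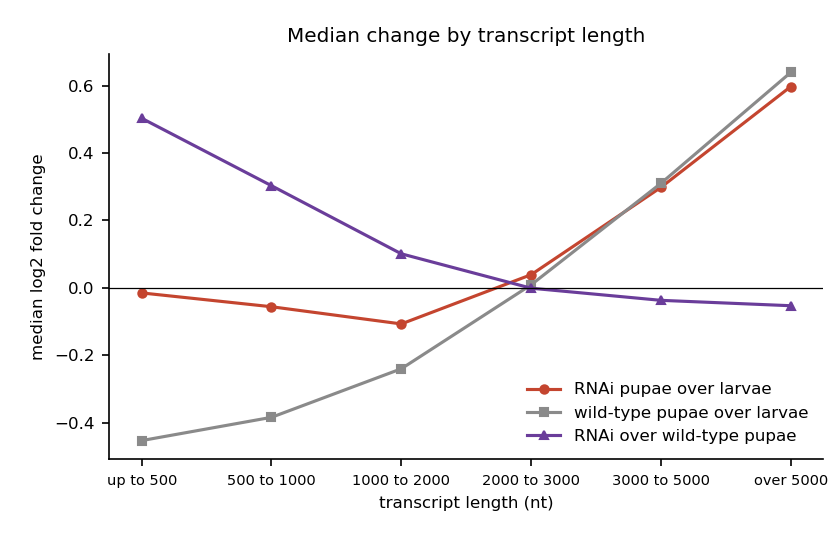
Median log2 change of the kept genes in 6 classes of transcript length (nt, x axis) for the 3 comparisons. Both comparisons with larvae climb to about 0.6 in the longest class, and the comparison of RNAi with wild-type pupae falls from 0.50 in the shortest class to -0.05 in the longest.

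Chromosome 4, which is small and largely heterochromatic, stood apart from the others. Of its 63 kept genes, 36 rose and 6 fell, with a median of 0.55, against medians of -0.00 (X) to 0.08 (3L) on the other arms. Its genes are long, with a median of 3526 nt, and after removal of the length trend 21 rose and 7 fell of 61, with a median of 0.29. In wild-type pupae against larvae, which share the larval libraries, 41 of the 63 rose, with a median of 0.61.

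Stage changes that were present in RNAi pupae were those called in the same direction in wild-type pupae against larvae. They comprised 1162 of the 1946 genes that rose and 852 of the 1374 that fell. Of all 6942 genes, 22.2% rose and 26.8% fell in wild-type pupae against larvae, and both comparisons share the 2 larval libraries, which by itself makes their calls more alike. The group that rose held 667 genes after removal of the length trend. Without RNAi replicate 2 the counts were 662 and 448, without larval replicate 2 they were 840 and 426, and without wild-type pupal replicate 2 they were 803 and 473. The authors' deposited table of wild-type pupae against larvae listed 861 of the 1162 as higher and 318 of the 852 as lower, with none in the opposite direction.

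Genes of the ecdysone cascade were among them. Hr4, a nuclear receptor induced by ecdysone (X:1835973-1899495), stood at 2.44 and 2.57 FPKM in the larvae, 27.8 and 30.6 in the wild-type pupae and 21.6 and 25.3 in RNAi pupae. Both pupal groups lay far above the larvae, with a log2 fold change in RNAi pupae of 2.80 (SE 0.11, limma adjusted p = 9.884e-05). Eip75B, another nuclear receptor of the early cascade, stood at 16.4 and 10.9 FPKM in the larvae, 43.4 and 51.2 in the wild-type pupae and 40.4 and 50.3 in RNAi pupae (log2 change 1.68, SE 0.19, limma adjusted p = 0.000881). The 2 pupal groups overlapped, and the difference between them was -0.06 (SE 0.19, limma adjusted p = 0.83).

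Of 9 kept members of the early ecdysone list, 2 rose in RNAi pupae (Hr4 and Eip75B) and 1 fell, with a median of 0.26, against 6 that rose and a median of 0.77 in wild-type pupae. The share that rose in RNAi pupae was thus below the 28% of all genes, and without larval replicate 1 there were 4. After removal of the length trend 1 rose and 2 fell of 8, with a median of -0.23 in RNAi and 0.05 in wild-type pupae. Eip55E, the member that fell, stood at 132 and 148 FPKM in the larvae and 95.6 and 57.1 in RNAi pupae (log2 change -0.91, SE 0.21, limma adjusted p = 0.0108, and 0.0628 without larval replicate 2). The zinc-finger gene br, which marks the entry into metamorphosis, stood at 18 and 14.9 FPKM in the larvae, 27.4 and 40 in the wild-type pupae and 21.4 and 25 in RNAi pupae, and did not pass the test against larvae (0.47, limma adjusted p = 0.0684, and 0.10 after removal of the length trend). The receptor genes did not pass the test: EcR gave -0.38 (limma adjusted p = 0.064) and usp -0.18 (limma adjusted p = 0.16). EcR passed after removal of the length trend (-0.84, limma adjusted p = 0.00186).

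The nuclear receptor gene ftz-f1, named after its values were seen, was at 10.4 and 6.83 FPKM in the larvae, 15.3 and 15 in the wild-type pupae and 9.04 and 9.56 in RNAi pupae. Its RNAi replicates lay within the larval range and below both wild-type pupal replicates, and RNAi differed from wild-type pupae by -0.65 (SE 0.17, limma adjusted p = 0.0299). Among 6 kept ecdysone-inducible effector genes, 2 rose and 1 fell in RNAi pupae, with a median of 0.47, against 28% and 19.8% of all genes. In wild-type pupae 4 rose and none fell, with a median of 0.78. The 2 that rose in RNAi pupae were ImpE1 and ImpE2, which encode secreted or membrane proteins. ImpE2 stood at 4.51 and 7.63 FPKM in the larvae, 17.9 and 20.5 in the wild-type pupae and 9.86 and 13.2 in RNAi pupae, with a log2 change of 0.85 (SE 0.22, limma adjusted p = 0.0182). Neither passed without RNAi replicate 2, with limma adjusted p = 0.128 for ImpE1 and 0.109 for ImpE2.

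Genes of the 71E puff, small secreted proteins expressed late in the ecdysone response, were listed at 0 in both larval libraries and appeared in both pupal groups. Eig71Ea (3L:15642220-15642761) reached 41.6 and 11.9 FPKM in the wild-type pupae and 9.75 and 13.5 in RNAi pupae. Eig71Eb reached 24.7 and 5.82 FPKM in the wild-type pupae and 4.55 and 12.4 in RNAi pupae. Eig71Ed reached 28.9 and 7.3 FPKM in the wild-type pupae and 4.14 and 10.7 in RNAi pupae. The pupal replicates of each gene varied several-fold within a group, and the 2 pupal groups overlapped in Eig71Ea, Eig71Eb and Eig71Ed.

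Eig71Ec, CG4151 and CG42717 showed the same shape, also listed at 0 in larvae and at 3 to 11.3 FPKM in RNAi pupae. No fold is given against a listed 0. The Eig71Ec call against larvae did not pass without RNAi replicate 2 (limma adjusted p = 0.0794) or without either larval replicate (0.0586 and 0.0659). CG43679 and PGRP-SB2, a peptidoglycan recognition protein gene, were likewise near 0 in larvae. CG43679 stood at 0 and 0.408 FPKM in the larvae, 37.5 and 12.2 in the wild-type pupae and 12.8 and 41.9 in RNAi pupae. PGRP-SB2 stood at 0.0927 and 0 FPKM in the larvae, 36.5 and 13.5 in the wild-type pupae and 10.1 and 23.4 in RNAi pupae. Fat body and salivary gland are known sources of such transcripts. The summed fat body markers were 2.43 to 2.57 FPKM in the larvae and 1.91 to 3 FPKM in RNAi pupae, with the larval serum protein genes Lsp1alpha, Lsp1beta and Lsp2 under 1 FPKM throughout; the part of other tissues was otherwise not tested.

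Some growth genes were also stage changes present without Med27. Of all kept genes, 28% rose and 19.8% fell in RNAi pupae against larvae. Of 20 kept insulin and TOR pathway genes, 11 rose and 1 fell in RNAi pupae, with a median of 0.35, and without RNAi replicate 2 these counts were 6 and 0. InR, the insulin receptor, stood at 7.51 and 4.79 FPKM in the larvae, 20.9 and 21.5 in the wild-type pupae and 17.8 and 26.8 in RNAi pupae (log2 change 1.70, SE 0.23, limma adjusted p = 0.00141). All pupal replicates lay above both larval ones, and after removal of the length trend the fold change was 0.85 (limma adjusted p = 0.00779). As deposited, 11 genes of the list rose and none fell in wild-type pupae, with a median of 0.53. With that trend removed the list held 4 higher and 3 lower of 18 genes in RNAi pupae, with a median of 0.13. Of all 6787 genes with a length, 1534 then rose and 1533 fell, so the share of the list was near that of all genes.

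The member that fell was Thor, which encodes 4E-BP, a translation inhibitor held down by TOR. Thor stood at 15.9 and 24.3 FPKM in the larvae, 48 and 30.6 in the wild-type pupae and 11.5 and 8.19 in RNAi pupae. It was the opposite of the wild-type stage change, with -0.95 against larvae (SE 0.27, limma adjusted p = 0.0227) beside 0.93 in wild-type pupae (limma adjusted p = 0.0249). The call against larvae did not pass without larval replicate 2 (0.127) or without RNAi replicate 2 (0.119), while the difference from wild-type pupae was -1.88 (SE 0.27, limma adjusted p = 0.00343). The transcription factor gene foxo, named after its values were seen, stood at 7.51 and 6.01 FPKM in the larvae, 12.3 and 14 in the wild-type pupae and 6.54 and 7.54 in RNAi pupae. Its RNAi replicates overlapped the larval ones and lay below the wild-type pupal ones (-0.82, SE 0.14, limma adjusted p = 0.00668).

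The Myc gene dm and its antagonist Mnt rose in RNAi pupae as they did in wild-type pupae. The level of dm was 33.1 and 18.1 FPKM in the larvae, 72.1 and 67.5 in the wild-type pupae and 50.4 and 73.8 in RNAi pupae (log2 change 1.28, SE 0.27, limma adjusted p = 0.00788). Mnt had a log2 change of 1.31 (SE 0.22, limma adjusted p = 0.00349). Of 18 kept genes of ribosome biogenesis and Myc function, 12 rose and 2 fell, with a median of 0.39, against 28% and 19.8% of all kept genes. In wild-type pupae 7 of them rose and 3 fell, with a median of 0.12, against 22.2% and 26.8% of all genes. In RNAi 8 stood higher than in wild-type pupae, against 20% of all genes. The genes of the nucleolar proteins Fib and Nop56 did not pass: Fib gave 0.27 (limma adjusted p = 0.0916, and 0.0085 after removal of the length trend) and Nop56 0.05 (limma adjusted p = 0.658).

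Of 15 kept heat shock genes, 5 rose and 3 fell in RNAi pupae, and of 15 kept genes of lipid oxidation and storage 3 rose and 5 fell, against 28% and 19.8% of all genes. Without RNAi replicate 2 fewer heat shock genes rose, and fewer genes of both lists fell. After removal of the length trend 4 heat shock genes rose and 2 fell, with a median of 0.12 against 0.26 before. The lipid list then held 3 that rose and 7 that fell, with a median of -0.26 against 0.07 before. Hsp67Bc, a small heat shock protein gene, stood at 7.37 and 9.37 FPKM in the larvae, 43.7 and 41 in the wild-type pupae and 47.6 and 45.6 in RNAi pupae. The larvae lay far below both pupal groups, which differed by 0.14 from each other (SE 0.12, limma adjusted p = 0.414). The rise against larvae was 2.35 (SE 0.12, limma adjusted p = 0.000129). The lipase gene bmm rose by 1.48 (SE 0.18, limma adjusted p = 0.00107) and the lipid droplet gene Lsd-2 by 0.81 (SE 0.11, limma adjusted p = 0.00138).

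Among the genes that fell in both pupal groups, Cpr76Bc, a cuticular protein gene (3L:19514367-19520374), changed most. It stood at 109 and 79.9 FPKM in the larvae, 3.96 and 8.14 in the wild-type pupae and 4.38 and 6.7 in RNAi pupae. The 2 pupal groups overlapped, and RNAi pupae differed from larvae by -3.87 (SE 0.30, limma adjusted p = 0.00046). Sip1 (now CG10939) stood at 28.1 and 36.9 FPKM in the larvae, 7.62 and 5.77 in the wild-type pupae and 7.02 and 8.46 in RNAi pupae (log2 change -1.93, SE 0.18, limma adjusted p = 0.000565). GluRIIA, a glutamate receptor subunit gene of muscle, fell from 4.33 and 3.33 FPKM to 0.251 and 0.271 FPKM.

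Other genes of this group stood lower in RNAi than in wild-type pupae. CG14933, which overlaps the expressed gene Pde1c, stood at 18.6 and 17.1 FPKM in the larvae, 1.93 and 2.26 in the wild-type pupae and 0.835 and 0.744 in RNAi pupae, below both other groups. CG13023 stood at 357 and 332 FPKM in the larvae, 133 and 95.6 in the wild-type pupae and 45.5 and 22.3 in RNAi pupae, and the difference between the pupal groups was -1.79 (SE 0.30, limma adjusted p = 0.00591). CG9666 (now Mettl5) and CG42304 also fell below 1.4 FPKM, but they overlap the expressed genes Max and CG42303, and counting by strand is not stated, so their values are uncertain.

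**Figure D3:**
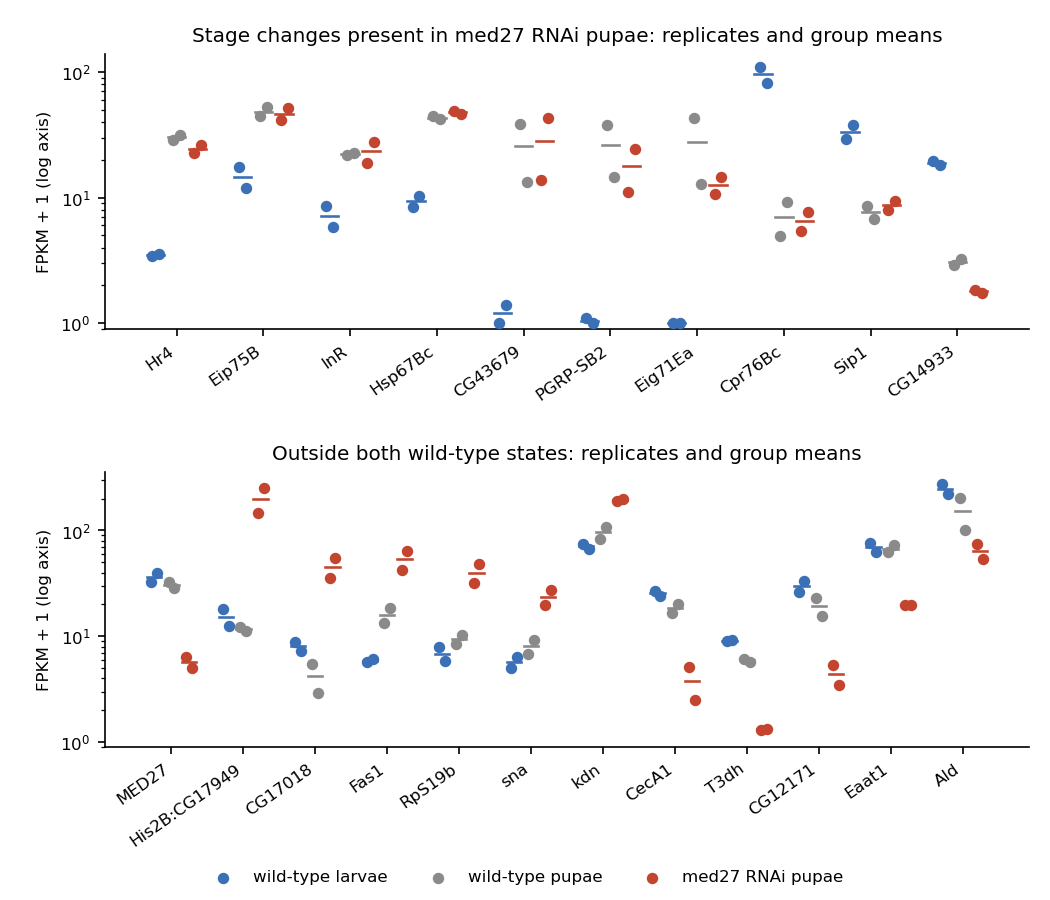
FPKM plus 1 on a log axis for each replicate (points) and group mean (bars) in wild-type larvae (blue), wild-type pupae (grey) and med27 RNAi pupae (red). In the upper panel both pupal groups stand on the same side of the larvae, as with Hr4 and Cpr76Bc. In the lower panel the RNAi replicates stand outside all 4 wild-type replicates, with MED27 at 3.99 and 5.33 FPKM.

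Genes of neuroblast fate and polarity also moved in RNAi pupae, many of them long. Of 19 kept genes of asymmetric division, 10 rose and 2 fell, with a median of 0.25, against 28% and 19.8% of all genes. But after removal of the length trend 3 rose and 4 fell, with a median of 0.04. The cortical polarity kinase gene aPKC stood at 31.9 and 26.1 FPKM in the larvae, 46.1 and 47.9 in the wild-type pupae and 49 and 52.7 in RNAi pupae (log2 change 0.80, SE 0.11, limma adjusted p = 0.00147). Its value was 0.65 after removal of the length trend. The differentiation factor gene pros gave 0.57 (limma adjusted p = 0.0152), turned to -0.46 (limma adjusted p = 0.00521) after removal of the length trend, and did not pass without larval replicate 2 (0.0785) or RNAi replicate 2 (0.0832). The cargo protein gene mira stood at 815 and 823 FPKM in the larvae and 874 and 793 FPKM in RNAi pupae (0.02, limma adjusted p = 0.833).

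The temporal factors mark the age of a neuroblast. Of 11 kept members, 3 rose in RNAi pupae (svp, mamo and grh), with a median of 0.38, a share near the 28% of all genes. In wild-type pupae 10 rose, with a median of 0.97, where 22.2% of all genes rose. Without RNAi replicate 2 there was 1 that rose, svp, of 10 that passed the filter, without larval replicate 1 there were 6, and grh did not pass (limma adjusted p = 0.175). The value of grh, 0.38, was 0.06 after removal of the length trend (limma adjusted p = 0.701). After removal of the length trend the median was -0.04 in RNAi and 0.58 in wild-type pupae. The nuclear receptor gene svp stood at 22.5 and 19.7 FPKM in the larvae, 45.3 and 47.3 in the wild-type pupae and 34.5 and 36.3 in RNAi pupae. It lay between the groups without overlap, at 0.72 above larvae (SE 0.09, limma adjusted p = 0.00124, and 0.45 after removal of the length trend) and 0.38 below wild-type pupae (limma adjusted p = 0.0229).

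The early-fate gene chinmo and Syp (CG17838 in the files), which acts late in larval neuroblasts, were named after their values were seen. The level of chinmo was 7.67 and 5.68 FPKM in the larvae, 16 and 21.1 in the wild-type pupae and 8.79 and 9.96 in RNAi pupae. Its difference between RNAi and wild-type pupae was -0.91 (SE 0.17, limma adjusted p = 0.00953), and against larvae it was 0.44 (limma adjusted p = 0.0707). Syp stood at 1695 and 998 FPKM in the larvae, 2923 and 3216 in the wild-type pupae and 1488 and 1710 in RNAi pupae, within or next to the larval range. RNAi differed from wild-type pupae by -0.94 for Syp (SE 0.23, limma adjusted p = 0.0208).

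The Notch pathway keeps neuroblasts self-renewing. Of its genes, kuz, the protease that activates Notch, had a log2 change of 1.46 (SE 0.16, limma adjusted p = 0.000804), and the coactivator gene mam one of 1.38 (SE 0.17, limma adjusted p = 0.00112). These became 0.91 and 0.79 after removal of the length trend, and N itself went from 0.75 (limma adjusted p = 0.00215) to -0.08 (limma adjusted p = 0.508). In all, 9 of 15 kept genes rose and 3 fell, against 28% and 19.8% of all genes, and fewer rose without RNAi replicate 2. After removal of the length trend 7 rose and 3 fell, with a median of 0.28 against 0.57 before.

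The E(spl) genes, short targets of Notch that encode repressors, moved in both directions. E(spl), now called E(spl)m8-HLH, stood at 48.6 and 50 FPKM in the larvae, 28.4 and 25.4 in the wild-type pupae and 20.4 and 20.1 in RNAi pupae. It fell below both wild-type groups, by 1.24 on the log2 scale against larvae (SE 0.09, limma adjusted p = 0.000347). HLHmgamma, a repressor gene with high levels in neuroblasts and named after its values were seen, stood at 140 and 152 FPKM in the larvae, 112 and 113 in the wild-type pupae and 85.2 and 85.1 in RNAi pupae (log2 change -0.77, SE 0.08, limma adjusted p = 0.000631). In contrast, HLHmdelta stood at 1.91 and 1.41 FPKM in the larvae, 1.67 and 2 in the wild-type pupae and 6.6 and 9.37 in RNAi pupae (log2 change 1.75, SE 0.21, limma adjusted p = 0.000978), above all 4 wild-type replicates.

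The Polycomb list holds genes that maintain silencing and also trx, of the opposing Trithorax group. Of its 15 kept genes, 9 rose and none fell in RNAi pupae, with a median of 0.59, against 28% and 19.8% of all genes. In wild-type pupae 8 rose, against 22.2% of all genes. The transcripts of the list are long (median 3918 nt), and after removal of the length trend 5 rose, with a median of 0.09. Of 25 kept DNA replication genes, 1 rose and 10 fell, with a median of -0.20, against 28% and 19.8% of all genes. In wild-type pupae 13 fell, against 26.8% of all genes. Mcm2, a helicase subunit gene, stood at 288 and 324 FPKM in the larvae, 226 and 239 in the wild-type pupae and 215 and 201 in RNAi pupae (log2 change -0.56, SE 0.09, limma adjusted p = 0.00248). There were 4 that fell without RNAi replicate 2, and without RNAi replicate 1 there were 6.

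Neuron markers moved with these results. Their sum over 20 genes was 74.4 and 58.8 FPKM in the larvae, 162 and 288 FPKM in the wild-type pupae and 158 and 166 FPKM in RNAi pupae, more than 2 times the larval sum in both RNAi replicates. Of 13 kept markers, 7 rose in RNAi pupae and none fell, with a median of 0.99, against 28% and 19.8% of all genes. In wild-type pupae 12 rose, against 22.2% of all genes. The transcripts of the list are long (median 3602 nt). After removal of the length trend 5 rose in RNAi pupae, with a median of 0.949, and 9 in wild-type pupae. Fewer rose in RNAi pupae without RNAi replicate 2 (median 1.13), and more without either wild-type pupal replicate (median 0.99). The pan-neuronal gene elav stood at 15.3 and 11.8 FPKM in the larvae, 39.5 and 61.8 in the wild-type pupae and 36.7 and 43.1 in RNAi pupae (log2 change 1.502, SE 0.21, limma adjusted p = 0.00173). In sorted bulk cells, more neurons among the cells and more such RNA per neuroblast cannot be told apart.

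Stage changes that were missing in RNAi pupae were counted next: 361 of the 1539 genes that rose and 898 of the 1858 that fell in wild-type pupae were not called in RNAi pupae against larvae. A gene that missed the threshold is not shown to be unchanged, so the difference between the 2 pupal groups is given for each gene named.

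Respiratory genes were among those whose fall was missing. Of all genes, 26.8% fell in wild-type pupae and 19.8% in RNAi pupae against larvae. Of 33 kept subunits of complex I, the entry point of the respiratory chain, 31 fell in wild-type pupae against larvae, with a median of -0.54. In RNAi pupae 2 rose and 6 fell, with a median of -0.03. RNAi exceeded wild-type pupae in 28 of the 33, against 20% of all genes. The number that fell in RNAi pupae was 10 without larval replicate 1, 0 without RNAi replicate 2, and 3 without any one of the other 4 replicates. Complexes III, IV and V gave medians of -0.06, -0.02 and 0.17 in RNAi pupae against -0.60, -0.52 and -0.42 in wild-type pupae, where 8, 9 and 10 genes fell. These transcripts are short, with a median of 710 nt for complex I. After removal of the length trend complex I had a median of -0.17 in wild-type and 0.03 in RNAi pupae. Then 10 of its genes stood higher in RNAi than in wild-type pupae, against 945 of all 6787 genes with a length. Complexes III, IV and V then had wild-type medians of -0.23, -0.07 and -0.09, with 4, 2 and 2 genes that fell. Their medians in RNAi pupae were then -0.05, 0.04 and 0.26.

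Complex II kept part of the fall. All 4 of its kept genes fell in wild-type pupae, with a median of -0.53, against 26.8% of all genes. In RNAi pupae 2 fell, with a median of -0.24, against 19.8% of all genes. After removal of the length trend 2 fell in each, with medians of -0.35 and -0.13. SdhA kept the wild-type fall, at -0.37 in RNAi and -0.36 in wild-type pupae against larvae. SdhC, another subunit gene of complex II, stood at 306 and 394 FPKM in the larvae, 201 and 239 in the wild-type pupae and 353 and 328 in RNAi pupae. Its RNAi replicates lay within the larval range and above both wild-type pupal ones (0.63, SE 0.14, limma adjusted p = 0.0147). RFeSP, the iron-sulphur subunit gene of complex III, stood at 362 and 387 FPKM in the larvae, 241 and 252 in the wild-type pupae and 368 and 380 in RNAi pupae, with a difference between the pupal groups of 0.60 (SE 0.08, limma adjusted p = 0.0023). Cytochrome c, encoded by Cyt-c-p, went beyond both wild-type states at 348 and 354 FPKM, against 229 and 232 in the larvae and 238 and 225 in the wild-type pupae (log2 change 0.60, SE 0.07, limma adjusted p = 0.00098).

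ATP synthase subunits also split. ATPsyn-Cf6 stood at 420 and 467 FPKM in the larvae, 319 and 342 in the wild-type pupae and 612 and 640 in RNAi pupae, above both (log2 change 0.50, SE 0.09, limma adjusted p = 0.0036). The epsilon subunit gene sun stood at 529 and 500 FPKM in the larvae, 357 and 319 in the wild-type pupae and 341 and 329 in RNAi pupae, and so kept the wild-type fall (log2 change -0.62, SE 0.08, limma adjusted p = 0.00158). After removal of the length trend 6 of 13 kept complex V genes rose and 2 fell. As deposited, 4 rose and 2 fell, against 28% and 19.8% of all genes. Without RNAi replicate 2 there was 1 of each, and without RNAi replicate 1 or larval replicate 1 there were 2 of each.

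Mitochondrial ribosomal proteins and the proteasome also fell in wild-type pupae, where 26.8% of all genes fell. In RNAi pupae 28% of all genes rose and 19.8% fell. Of 72 kept mitochondrial ribosomal protein genes, 62 fell in the wild-type pupae and 19 in RNAi pupae, where 3 rose, with medians of -0.49 and -0.06. Without RNAi replicate 2 there were 3 that fell in RNAi pupae, without RNAi replicate 1 there were 7, and without larval replicate 2 there were 6 that fell and 10 that rose. After removal of the length trend 19 fell in wild-type pupae, with a median of -0.12, and in RNAi pupae 11 rose and 11 fell, with a median of 0.03. The gene mRpL34 stood at 185 and 204 FPKM in the larvae, 69.7 and 70.1 in the wild-type pupae and 167 and 158 in RNAi pupae, just below the larvae (-0.26, limma adjusted p = 0.0309) and 1.20 above wild-type pupae (SE 0.08, limma adjusted p = 0.000516). Of 29 kept proteasome genes, 22 fell in the wild-type pupae and 3 in RNAi pupae, with medians of -0.36 and -0.00. After removal of the length trend the proteasome had medians of -0.12 and 0.12, and 6 of its genes rose in RNAi pupae.

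Single redox genes also lacked the fall. GstD3 and GstD9, both glutathione S-transferase genes, stood near larval values in RNAi pupae. GstD3 stood at 11.2 and 8.32 FPKM in the larvae, 2.54 and 2.58 in the wild-type pupae and 8 and 11.7 in RNAi pupae, with a difference between the pupal groups of 1.59 (SE 0.20, limma adjusted p = 0.0023). The thioredoxin gene Trx-2 stood at 300 and 346 FPKM in the larvae, 224 and 108 in the wild-type pupae and 351 and 315 in RNAi pupae (1.09 between the pupal groups, SE 0.29, limma adjusted p = 0.0301). IM14, an immune-induced peptide gene, and qjt showed the same order. GstD genes lie in a cluster of similar copies, and GstD9 overlaps GstD1, so their values are uncertain.

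Of the genes that rose in the wild-type pupae and stood at larval values in RNAi pupae, CG34380 (now smal, a receptor tyrosine kinase gene) is an example. It stood at 6.54 and 5.9 FPKM in the larvae, 18.9 and 19.8 in the wild-type pupae and 5.04 and 5.33 in RNAi pupae, which lay 1.72 below wild-type pupae (SE 0.11, limma adjusted p = 0.000516). CG32529 (now Hers, described as a repressor of histone genes) stood at 12.5 and 11.7 FPKM in the larvae, 25.4 and 30.6 in the wild-type pupae and 11.9 and 12.2 in RNAi pupae (-1.14 between the pupal groups, SE 0.11, limma adjusted p = 0.00125). Both are long genes, and after removal of the length trend they fell against larvae, CG34380 by 0.74 on the log2 scale (limma adjusted p = 0.00142) and CG32529 by 0.62 (limma adjusted p = 0.00198).

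The chromatin protein gene corto stood at 56.8 and 40.3 FPKM in the larvae, 92.6 and 105 in the wild-type pupae and 50.8 and 53.4 in RNAi pupae. The RNAi replicates lay within the larval range and 0.91 below wild-type pupae (SE 0.15, limma adjusted p = 0.0062). Without larval replicate 1 corto passed the test against larvae (0.36, limma adjusted p = 0.0309). The proneural gene ase, a neuroblast marker, stood at 57.7 and 47.7 FPKM in the larvae, 82.1 and 85.8 in the wild-type pupae and 47.2 and 47.2 in RNAi pupae. Its RNAi values lay just below the larval ones and 0.82 below wild-type pupae (SE 0.10, limma adjusted p = 0.00222). Without larval replicate 2 ase passed the test against larvae (-0.28, limma adjusted p = 0.034).

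**Figure D4:**
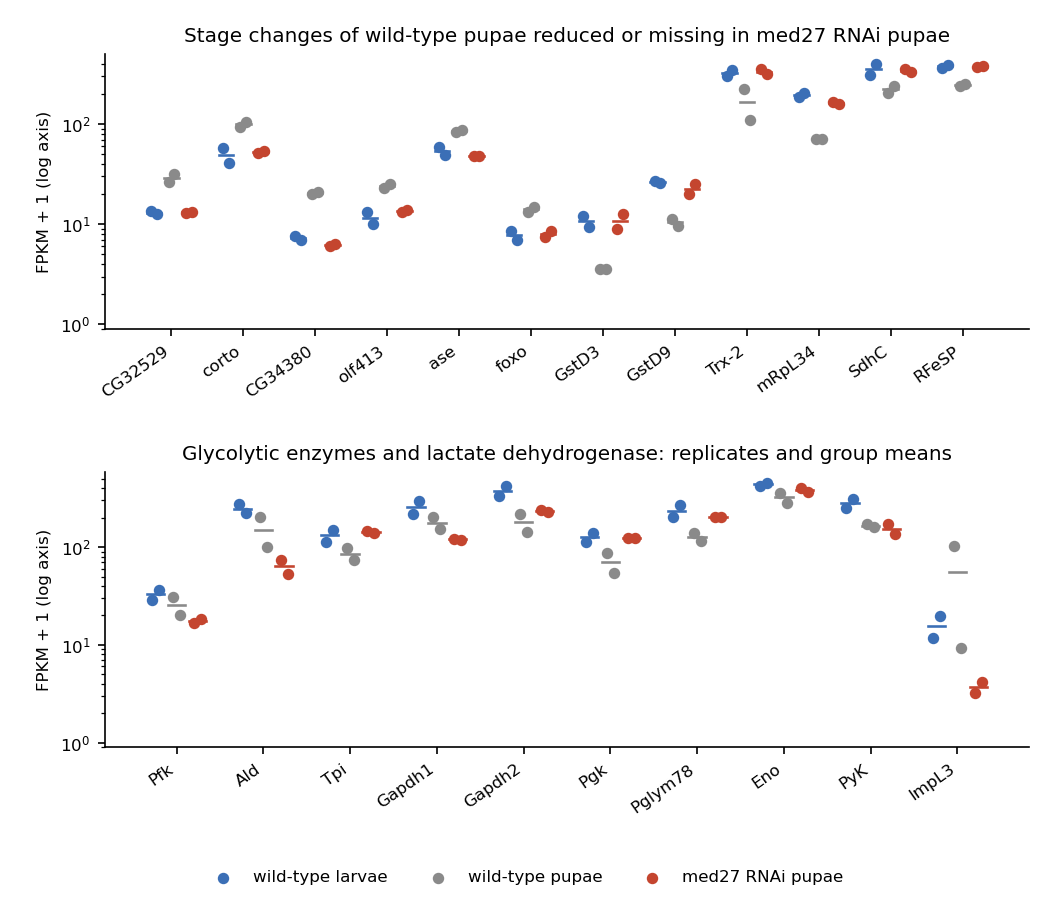
FPKM plus 1 on a log axis for each replicate (points) and group mean (bars) in wild-type larvae (blue), wild-type pupae (grey) and med27 RNAi pupae (red). In the upper panel the red points stand at or near the blue ones, as for RFeSP at 368 and 380 against 362 and 387 FPKM. In the lower panel Ald and Gapdh1 fall below both wild-type groups in RNAi pupae, while Tpi and Pgk stand near the larval values.

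Most genes of cytosolic ribosomal proteins fell. Of 87 kept genes, 76 fell and 2 rose in RNAi pupae against larvae, with a median of -0.66, against 19.8% and 28% of all genes. The fall was also seen after removal of the length trend (77 genes, median -0.56) and with rescaling (72 genes, median -0.48). Quantile normalization, which forces the same values on the most abundant genes of every library, gave 33 genes that fell and 14 that rose, with a median of -0.10. There were 52 that fell without RNAi replicate 2.

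Which of the pupal groups carried the ribosomal fall depended on the length trend. As deposited, 68 genes fell in wild-type pupae against larvae (median -0.44) and 13 fell in RNAi against wild-type pupae (median -0.19). After removal of the length trend the order turned: 13 fell in wild-type pupae against larvae (median -0.06) and 77 in RNAi against wild-type pupae (median -0.50). Of all 6787 genes with a length, 1042 and 898 then fell. The cause was not tested.

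The 2 ribosomal protein genes that rose were paralogues known from the germ line. Not every paralogue of the list rose: RpS5b was among the genes that fell, and RpL22-like, RpL37b and RpL10Aa did not pass the filter. RpS19b stood at 6.87 and 4.86 FPKM in the larvae, 7.37 and 9.38 in the wild-type pupae and 30.9 and 46.8 in RNAi pupae (log2 change 2.52, SE 0.23, limma adjusted p = 0.000565). RpS10a stood at 0.864 and 1.56 FPKM in the larvae, 1.22 and 1.96 in the wild-type pupae and 9 and 8.68 in RNAi pupae (log2 change 2.17, SE 0.22, limma adjusted p = 0.000682). Both lay above all 4 wild-type replicates. RpS10a overlaps the expressed gene tau, and each has a broadly expressed paralogue of similar sequence, so their exact levels are uncertain.

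**Figure D5:**
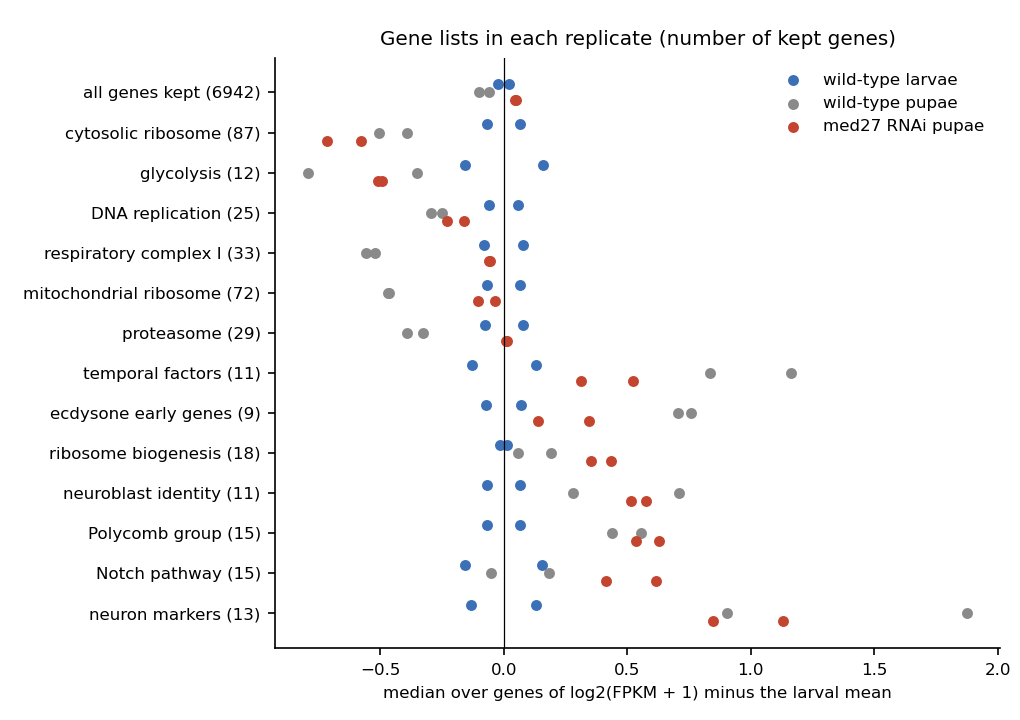
For each gene list (number of kept genes in brackets) the median over its genes of log2(FPKM + 1) minus the larval mean, per replicate, in wild-type larvae (blue), wild-type pupae (grey) and med27 RNAi pupae (red). Complex I, mitochondrial ribosome and proteasome sit near 0 in RNAi pupae and at -0.33 to -0.56 in wild-type pupae, and cytosolic ribosome sits in RNAi pupae at -0.58 and -0.72.

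Of 12 kept glycolysis genes, including lactate dehydrogenase, 5 fell and none rose in RNAi pupae, with a median of -0.49, against 19.8% and 28% of all genes. In wild-type pupae 8 fell, with a median of -0.59. In RNAi pupae without larval replicate 2 there were 3 that fell. Ald, encoding aldolase, stood at 272 and 222 FPKM in the larvae, 200 and 100 in the wild-type pupae and 73.2 and 52.4 in RNAi pupae, below all 4 wild-type replicates (log2 change -1.97, SE 0.30, limma adjusted p = 0.00236). Gapdh1 stood at 216 and 296 FPKM in the larvae, 201 and 154 in the wild-type pupae and 120 and 118 in RNAi pupae (log2 change -1.08, SE 0.17, limma adjusted p = 0.00251). PyK, encoding pyruvate kinase, fell by 0.87 on the log2 scale (SE 0.14, limma adjusted p = 0.00256).

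Tpi and Pgk, enzymes of other steps named after their values were seen, stood near larval levels. Tpi was at 113 and 149 FPKM in the larvae, 97.2 and 72.4 in the wild-type pupae and 146 and 137 in RNAi pupae, which lay 0.75 above wild-type pupae (SE 0.17, limma adjusted p = 0.0168). Pgk was at 112 and 139 FPKM in the larvae, 85.4 and 53.4 in the wild-type pupae and 123 and 122 in RNAi pupae (0.85 above wild-type pupae, SE 0.20, limma adjusted p = 0.0209). ImpL3, the lactate dehydrogenase gene, lay at 10.9 and 18.6 FPKM in the larvae, 102 and 8.23 in the wild-type pupae and 2.21 and 3.21 in RNAi pupae. Its change against larvae was -2.06 (limma adjusted p = 0.11 with all groups in the fit, and 0.00208 with the larval and RNAi replicates alone).

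Of 18 kept genes of the tricarboxylic acid cycle, 5 rose and 4 fell, close to the 28% and 19.8% of all genes. The citrate synthase gene kdn stood at 74.1 and 66.2 FPKM in the larvae, 81.9 and 108 in the wild-type pupae and 188 and 195 in RNAi pupae, above all 4 wild-type replicates (log2 change 1.44, SE 0.13, limma adjusted p = 0.000565). Idh, encoding an NADP-dependent isocitrate dehydrogenase, stood at 124 and 145 FPKM in the larvae, 74.8 and 67.3 in the wild-type pupae and 57.9 and 55.1 in RNAi pupae (log2 change -1.23, SE 0.10, limma adjusted p = 0.000499). The malate dehydrogenase gene Mdh2 (-1.05, SE 0.14, limma adjusted p = 0.00145) and the fumarase gene l(1)G0255 (-0.86, SE 0.09, limma adjusted p = 0.000806) also fell below both wild-type groups.

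Genes outside both wild-type states, called in the same direction against larvae and against wild-type pupae, numbered 643 higher and 369 lower. Of all 6942 genes, 20% rose and 8.77% fell in RNAi against wild-type pupae, and both comparisons share the RNAi replicates. In 1104 of the 1946 genes that rose and 783 of the 1374 that fell, both RNAi replicates lay outside the range of the 4 wild-type replicates. The calls themselves favour such genes, and their number over all 6942 kept genes was not counted. Lower in both were 636 genes after removal of the length trend, and with quantile normalization 408 were higher in both. Without RNAi replicate 2 the counts were 185 and 130, without RNAi replicate 1 they were 306 and 233, and without wild-type pupal replicates 1 and 2 in turn they were 443 and 217 and then 361 and 215. The authors' deposited table of the pupal groups listed 389 of the 643 as higher in RNAi and 265 of the 369 as lower, with none in the opposite direction.

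A histone gene had the largest change among the genes that were higher. His2B:CG17949 (2L:21423125-21423745), a copy of the replication-dependent histone H2B, whose transcripts normally lack polyA, stood at 17.1 and 11.6 FPKM in the larvae, 11.2 and 10.2 in the wild-type pupae and 145 and 249 in RNAi pupae. Both RNAi replicates lay far above all 4 others, with a log2 change of 3.66 (SE 0.26, limma adjusted p = 0.000347). Histone genes occur in near-identical copies, so the copy is uncertain. The libraries were polyA-selected, and whether the amount or the polyadenylation of the transcript differed was not tested.

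CG17018, now Marf1, an RNA regulator of oocytes, stood at 7.77 and 6.28 FPKM in the larvae, 4.47 and 1.92 in the wild-type pupae and 34.7 and 54.4 in RNAi pupae (log2 change 2.48, SE 0.31, limma adjusted p = 0.00119). The gene del, or deadlock, a factor of piRNA transcription in the ovary that overlaps CG9253 here, stood at 3.33 and 1.94 FPKM in the larvae, 3.17 and 2.04 in the wild-type pupae and 15 and 21.8 in RNAi pupae (log2 change 2.42, SE 0.26, limma adjusted p = 0.000761). In wild-type pupae CG17018 moved the other way, by -1.001 against larvae (limma adjusted p = 0.0335).

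CG43182 was listed at 0 in both larval libraries and stood at 0.113 and 0.223 FPKM in the wild-type pupae and 6.36 and 11.9 in RNAi pupae. CG17778 stood at 1.18 and 0.576 FPKM in the larvae, 1.32 and 1.04 in the wild-type pupae and 11 and 9.94 in RNAi pupae (log2 change 2.63, SE 0.21, limma adjusted p = 0.00046). Ccp84Ad, a cuticle protein gene, rose to 5.73 and 9.06 FPKM from under 1 FPKM in both wild-type groups. GLaz, which encodes a secreted lipocalin, stood at 2.91 and 3.78 FPKM in the larvae, 2.95 and 2.29 in the wild-type pupae and 15.1 and 24.8 in RNAi pupae (log2 change 2.24, SE 0.24, limma adjusted p = 0.00075). The fragment pre-mod(mdg4)-AD overlaps other mod(mdg4) units and its call did not pass with technical run 1 alone (limma adjusted p = 0.0578), so its value is uncertain.

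Fas1 rose at pupariation and again with RNAi. This gene, which encodes the cell adhesion protein Fasciclin 1 (3R:12450948-12465493), stood at 4.71 and 5.04 FPKM in the larvae, 12.2 and 17.4 in the wild-type pupae and 41.7 and 62.8 in RNAi pupae. The 3 groups did not overlap, with 3.15 against larvae (SE 0.22, limma adjusted p = 0.000328) beside 1.41 in wild-type pupae against larvae (limma adjusted p = 0.00276).

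The Snail-family genes sna and esg, which act in embryonic neuroblasts, were also higher. The gene sna stood at 3.99 and 5.35 FPKM in the larvae, 5.84 and 8.21 in the wild-type pupae and 18.6 and 26.6 in RNAi pupae (log2 change 2.05, SE 0.22, limma adjusted p = 0.000758). Its relative esg stood at 1.53 and 1.81 FPKM in the larvae, 1.99 and 3.62 in the wild-type pupae and 5.62 and 7.45 in RNAi pupae (log2 change 1.49, SE 0.24, limma adjusted p = 0.00272). Both lay above all wild-type replicates. In all, 9 of 11 kept neuroblast identity genes rose, with a median of 0.55, against 28% of all genes, and without RNAi replicate 2 there were 4. After removal of the length trend 6 rose, with a median of 0.28. The member scrt, which rose, is also on the neuron list. The Snail-family gene wor and the repressor gene dpn, 2 of the calls near the threshold, had fold changes of 0.28 (limma adjusted p = 0.046) and 0.23 (limma adjusted p = 0.0488), and did not pass without RNAi replicate 2 (0.283 and 0.261) or larval replicate 2 (0.174 and 0.156). Nor did wor pass after removal of the length trend (limma adjusted p = 0.0581).

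Of 11 kept cell death genes, 5 rose and none fell, against 28% and 19.8% of all genes. Without either RNAi replicate there were 3 that rose. Dcp-1, an effector caspase gene, stood at 6.9 and 7.6 FPKM in the larvae, 8.9 and 11.2 in the wild-type pupae and 16.4 and 17.8 in RNAi pupae (log2 change 1.13, SE 0.13, limma adjusted p = 0.000925). Bruce, an inhibitor of apoptosis, rose by 1.42 (SE 0.12, limma adjusted p = 0.000499), and by 0.39 (limma adjusted p = 0.00452) after removal of the length trend. The death inducer gene rpr stayed at 0.958 to 1.68 FPKM in the larvae and 1.63 to 1.64 FPKM in RNAi pupae, with a fold change of 0.20 (limma adjusted p = 0.493).

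Among genes that were lower than both wild-type states were the antimicrobial peptide genes CecA1 and CecA2. CecA1 stood at 26 and 23.1 FPKM in the larvae, 15.7 and 19.3 in the wild-type pupae and 4.14 and 1.48 in RNAi pupae (log2 change -2.84, SE 0.30, limma adjusted p = 0.000761). CecA2 stood at 6.47 and 4.75 FPKM in the larvae, 5.06 and 4.22 in the wild-type pupae and 0.538 and 0.614 in RNAi pupae (log2 change -2.06, SE 0.19, limma adjusted p = 0.000565). Both lay below all 4 wild-type replicates. Of 19 matched immune genes 5 passed the filter, and 3 of these fell, against 19.8% of all genes. Haemocyte marker sums moved the same way, at 44.5 and 38.5 FPKM in the larvae, 32.7 and 32.6 in the wild-type pupae and 23.6 and 24.5 in RNAi pupae; their part in the result was not tested, and the defining markers Hml, He, nimC1 and srp were under 1 FPKM throughout.

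Further genes fell below both states. T3dh, a type III alcohol dehydrogenase gene, lay at 8.04 and 8.2 FPKM in the larvae, 5.08 and 4.76 in the wild-type pupae and 0.31 and 0.343 in RNAi pupae (log2 change -2.78, SE 0.15, limma adjusted p = 0.000157). CG10424, now Naxd, which repairs damaged NAD(P)H, stood at 34.9 and 37.6 FPKM in the larvae, 28.2 and 21.4 in the wild-type pupae and 5.48 and 4.89 in RNAi pupae (log2 change -2.59, SE 0.14, limma adjusted p = 0.000157). CG17680, now EMRE, a regulator of the mitochondrial calcium uniporter, stood at 38.3 and 40.9 FPKM in the larvae, 21.9 and 24.1 in the wild-type pupae and 6.16 and 4.38 in RNAi pupae (log2 change -2.71, SE 0.14, limma adjusted p = 0.000157).

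CG12171 (3R:1459346-1460362), a short-chain dehydrogenase gene, lies 20505 nt from MED27 on the same arm. It stood at 25.5 and 32.4 FPKM in the larvae, 22.1 and 14.4 in the wild-type pupae and 4.41 and 2.49 in RNAi pupae (log2 change -2.78, SE 0.26, limma adjusted p = 0.000603). Its neighbours CG31548 and CG31549, picked for their position, fell too, by 1.31 and 1.37 on the log2 scale (SE 0.20 and 0.26, limma adjusted p = 0.00225 and 0.00546). Within 25000 nt of MED27, 12 genes passed the filter, of which 4 fell and 4 rose, against 19.8% and 28% of all genes. Of the genes nearest to MED27, elm, 254 nt away, rose by 0.54 (SE 0.08, limma adjusted p = 0.00181).

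Eaat1, the glutamate transporter gene, is best known from glia. It stood at 75.7 and 61.4 FPKM in the larvae, 61.1 and 71.5 in the wild-type pupae and 18.6 and 18.7 in RNAi pupae (log2 change -1.81, SE 0.12, limma adjusted p = 0.000309). The RNAi replicates lay below all 4 others, while 6 of 13 glial markers, repo among them, stayed under 1 FPKM in every replicate. The septate junction gene Gli and the sodium pump gene nrv2, the other called members of the glial list, rose by 1.17 and 0.29.

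The cell cycle kinase gene Cdk4 also fell below both states. It stood at 14.4 and 15 FPKM in the larvae, 16.2 and 13.2 in the wild-type pupae and 7.93 and 6.7 in RNAi pupae (log2 change -0.92, SE 0.13, limma adjusted p = 0.00177). After removal of the length trend 4 of 18 kept genes of cell cycle entry rose and 3 fell. As deposited, 7 rose and 2 fell, against 28% and 19.8% of all genes. Without either RNAi replicate there were 1 and 1, without larval replicate 1 there were 4 and 2, without larval replicate 2 there were 4 and 1, and without either wild-type pupal replicate 6 and 1. The citron kinase gene sti, which acts in cytokinesis, stood at 147 and 132 FPKM in the larvae, 170 and 165 in the wild-type pupae and 243 and 256 in RNAi pupae (log2 change 0.84, SE 0.08, limma adjusted p = 0.000633), and gave 0.26 after removal of the length trend.

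The other Mediator subunits moved in both directions. Of all kept genes, 28% rose and 19.8% fell in RNAi pupae, and the share that rose in the head and in the tail was near this. Of 30 kept subunit genes in 4 modules, the head held 2 that rose of 7, the middle 4 that rose and 1 that fell of 9, the tail 3 that rose and MED27 that fell of 10, and the kinase module 2 that rose and 1 that fell of 4. Fewer rose in the middle, the tail and the kinase module without RNAi replicate 2. After removal of the length trend 3 rose in the head, 4 in the middle, 2 in the tail and 2 in the kinase module. Then 1 fell in the middle and MED27 in the tail. MED19, a middle subunit gene, stood at 29.7 and 32.8 FPKM in the larvae, 36.6 and 36.4 in the wild-type pupae and 56.1 and 55.5 in RNAi pupae (log2 change 0.82, SE 0.08, limma adjusted p = 0.000651). MED6, a head subunit gene, stood at 17.6 and 14 FPKM in the larvae, 21.7 and 20.9 in the wild-type pupae and 28.8 and 30.5 in RNAi pupae (log2 change 0.87, SE 0.12, limma adjusted p = 0.00145). Both lay above all 4 wild-type replicates. MED9 stood at 57 and 44.5 FPKM in the larvae, 22.4 and 36.7 in the wild-type pupae and 25.7 and 3.26 in RNAi pupae, so its RNAi replicates differed several-fold and its call (limma adjusted p = 0.0366) did not pass without either larval replicate (0.137 and 0.104).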

How the data were processed

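RNA of sorted neuroblasts was sequenced after polyA selection with a strand-marking (dUTP) protocol, per the labels' protocols. The deposited FPKM tables were made by the authors with Cufflinks 1.3.0, 1 table per sequencing run, per the file headers and the submitters' processing notes, which also name TopHat 1.4.1, BWA 0.6.1, HTSeq and DESeq 1.8.3 without roles. The sources used here give no genome build, annotation or use of strand in counting, so overlapping and antisense genes are uncertain. The authors also deposited 2 tables of their DESeq comparisons holding log2 fold changes and adjusted p-values, limited to genes under their threshold.

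From the FPKM values, technical runs were averaged (39 genes with a failed status in a run were kept as deposited), and log2(FPKM + 1) of the 6 replicates in 3 groups was fitted with limma 3.58.1 in R 4.3.3, with an intensity trend. Tests were two-sided, with Benjamini-Hochberg adjustment over all 6942 kept genes and a threshold of 0.05, and 3 residual degrees of freedom. Transcript lengths came from the Ensembl annotation by transcript identifier, as the median over the listed transcripts of a gene (6787 of the kept genes). Coordinates came from the deposited tables. Depth was derived from the bounds of well-covered genes with a single isoform and a length of at least 3000 nt. As a check, 91.76% to 93.94% of values under 50 fragments came within 0.02 of whole fragments. The fit was tested on simulated data.

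Members and gene lists were chosen with earlier results of these data known. Genes were named by a rule: MED27, the 12 largest changes in each direction, 8 per class in each direction, up to 4 called and the first 3 members of each list, and 6 stage changes in each direction with a main change nearest 0. Genes named outside it (chinmo, Syp, ftz-f1, foxo, Tpi, Pgk, ImpL3, HLHmgamma, CG31548, CG31549, elm and CG2182 among them) were chosen after their values were seen. A gene matched by name to the ribosomal list that is not ribosomal was removed from it. Alternatives changed the pseudocount, filter, scaling, runs, intensity trend, replicate block and length trend, or left out replicates.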

Additional observations from a re-analysis of the deposited data

How the results depend on the processing

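Leaving out each replicate in turn gave 972 to 1910 genes higher and 650 to 1463 lower in RNAi pupae against larvae, 951 to 1480 and 931 to 1996 in wild-type pupae against larvae, and 554 to 1592 and 202 to 675 in RNAi against wild-type pupae. Stage changes seen without Med27 then numbered 662 to 1147 higher and 426 to 1005 lower, and genes outside both states 185 to 718 and 130 to 338. A lone replicate was taken to vary like the other groups. With no filter on low values, 328 genes were lower in RNAi than in wild-type pupae and 198 lower than both states. Quantile normalization gave 875 higher in RNAi than in wild-type pupae and 408 higher than both states. Rescaling without the most abundant gene gave 843 lower in RNAi pupae and 808 in wild-type pupae against larvae, with 335 stage changes lower in both. Removal of the length trend gave 994 higher and 1042 lower in wild-type pupae against larvae, 667 stage changes higher in both, and 636 genes lower than both states.

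Removal of the length trend, with or without the block, turned the sign of CG32529 (-0.617), MED1 (-0.107), MED14 (-0.066), tai (-0.677), pros (-0.455), N (-0.076), BubR1 (-0.09), Pi3K92E (-0.102), Atg2 (-0.404), Dcr-1 (-0.148), e(y)3 (-0.04), brm (-0.331) and Aats-glupro (-0.094). Quantile normalization turned that of Hsp23 (0.073). The cause was not tested. Replicate numbers did not pair the samples (correlations of deviations -0.062, -0.1 and -0.011). A replicate block gave 1749 genes higher and 1201 lower in RNAi pupae against larvae. The replicate block with the length trend removed gave 880 and 870 in wild-type pupae against larvae, 822 higher in RNAi than in wild-type pupae, 578 and 506 stage changes seen without Med27, and 556 genes lower than both states. Counts of promoter motifs were not run. With 2 replicates a group, small changes of low genes are not detectable.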
